A study of Mus musculus with 33 samples.

Results

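Maf, Ahr, Ahrr, Ccr6, Il23r, Tmem176a, Tmem176b and Stat3 are 8 genes linked to peripheral regulatory T cells (Treg) in the colon. They were chosen by symbol, with earlier results of these data known. Each matched 1 Ensembl gene, 8 of 53465 genes in the count table. The study concerns Treg in colorectal cancer and the cytokines TSLP, bound by TSLPR (gene Crlf2), and IL-33, bound by ST2 (gene Il1rl1). Colon CD4+ Foxp3+ cells of Foxp3-yfp mice on a B6 background were sorted into 4 gates by TSLPR and ST2. The tumour group was 4 cancer mice (mice 5 to 8), which got azoxymethane (AOM) at 10 mg/kg, then dextran sulfate sodium (DSS) in 3 cycles of 7 days, and were taken 2 weeks after the last of these. Against them stood 4 naive mice (mice 1 to 4), which carry the same reporter. All mice were bought at 7 to 12 weeks of age. This gives 8 groups of 4 libraries, 32 in all, and 1 more library holds naive CD44low Foxp3-negative T cells.

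There was no group with only AOM or only DSS, so a tumour, an inflamed colon and the agents themselves cannot be told apart as sources of a status difference. The sources used here do not give sort days or any mock treatment of naive mice. Each library came from 200 sorted cells and held 4038718 to 8839946 counts (median 6433005 over 32 Treg libraries). Library values below are CPM, counts scaled to library totals after TMM normalization. For status the mouse is the replicate. Tests between gates treated the 32 Treg libraries as separate units, and an alternative fit paired them with the mouse as a block. In means over gates, n counts libraries and not mice. A change is called where the Benjamini-Hochberg adjusted p of the edgeR quasi-likelihood test, over all tested genes, is under 0.05. Of the 8 genes, 7 passed the low-count filter and Ahrr did not.

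The sort genes followed the gates: Il1rl1 reached at most 11.001 CPM in ST2- libraries and was at least 95.6 CPM in ST2+ libraries. Crlf2 went against the gates in 1 animal, cancer mouse 5, with 25.2 CPM in its TSLPR+ST2+ library and 30.5 CPM in its TSLPR-ST2+ library. Foxp3 was detected in every Treg library, at 59.9 to 222 CPM. Its group medians ran from 90.6 CPM in cancer TSLPR+ST2+ to 206 CPM in naive TSLPR-ST2- Treg, with 162 CPM in naive TSLPR+ST2+ Treg.

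In mouse colon, Treg induced by the microbiota need the bZIP factor c-Maf, encoded by Maf, which also drives Il10. AhR, encoded by Ahr, is a ligand-activated transcription factor that senses dietary and microbial indoles and pairs with ARNT on DNA. Its target Ahrr encodes a repressor that competes for ARNT. STAT3 carries the signals of IL-6, IL-10, IL-21 and IL-23 to the nucleus, IL23R is the specific chain of the IL-23 receptor, and CCR6 guides cells towards CCL20. Tmem176a and Tmem176b encode related membrane proteins that are found in mouse type 17 lymphocytes and in myeloid cells.

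The promoter table of RefSeq (GRCm38.p6, 250 bases before to 50 after a start) holds windows for 6 of the 8 genes: Ahrr, Ccr6, Il23r, Tmem176a, Tmem176b and Stat3. They were searched on both strands for the AhR core GCGTG, the Maf half-site TGCTGA, the STAT motif TTCNNNGAA and the ROR half-site AGGTCA. Of all 32851 windows, 32.4% hold GCGTG, 19.5% TGCTGA, 8.3% TTCNNNGAA and 16.3% AGGTCA. Ccr6 is shown because it differed between the gates and its window at chr17:8235793-8236092 (+ strand) holds 3 of these motifs. It has 2 Maf half-sites, 2 STAT motifs and 1 ROR half-site, read as TGACCT on the strand printed. Capitals mark the matches.
Ccr6: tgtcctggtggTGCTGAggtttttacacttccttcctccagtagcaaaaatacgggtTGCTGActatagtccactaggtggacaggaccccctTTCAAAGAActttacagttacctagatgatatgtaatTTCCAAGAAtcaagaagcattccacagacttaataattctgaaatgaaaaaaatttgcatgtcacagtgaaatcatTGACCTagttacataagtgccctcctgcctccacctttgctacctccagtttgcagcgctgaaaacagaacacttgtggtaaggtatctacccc
A second Ccr6 window, at chr17:8242276-8242575, holds no match. Ahrr is shown as the AhR target of the group, at chr13:74292282-74292581 (- strand), with 3 AhR cores in capitals. The last core is part of the longer TNGCGTG, found in 5.07% of windows and also in capitals.
Ahrr: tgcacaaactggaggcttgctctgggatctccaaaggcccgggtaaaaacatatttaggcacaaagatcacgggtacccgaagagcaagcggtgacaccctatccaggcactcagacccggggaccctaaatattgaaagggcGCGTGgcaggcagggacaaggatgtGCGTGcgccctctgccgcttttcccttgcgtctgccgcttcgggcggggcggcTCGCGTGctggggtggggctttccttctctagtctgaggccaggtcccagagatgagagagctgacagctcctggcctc
The table has 2 windows for Tmem176a and 3 for Tmem176b, and 1 of each is shown because the genes are divergent neighbours. Those of Tmem176a, at chr6:48841233-48841532 (+ strand), and Tmem176b, at chr6:48841088-48841387 (- strand), share 155 bases and are read in opposite directions. All 5 windows hold no match to the motifs, so nothing is in capitals.
Tmem176a: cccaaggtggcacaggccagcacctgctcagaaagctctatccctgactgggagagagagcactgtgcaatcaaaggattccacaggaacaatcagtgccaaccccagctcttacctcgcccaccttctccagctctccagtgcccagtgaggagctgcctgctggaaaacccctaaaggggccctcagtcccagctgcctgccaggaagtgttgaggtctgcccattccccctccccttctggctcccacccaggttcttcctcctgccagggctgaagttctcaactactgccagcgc
Tmem176b: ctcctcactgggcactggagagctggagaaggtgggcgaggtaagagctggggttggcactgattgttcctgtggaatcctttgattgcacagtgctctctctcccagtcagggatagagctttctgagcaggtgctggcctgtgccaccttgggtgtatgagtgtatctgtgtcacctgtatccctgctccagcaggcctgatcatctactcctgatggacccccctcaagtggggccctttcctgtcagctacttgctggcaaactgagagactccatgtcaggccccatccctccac
The Il23r window holds 1 Maf half-site and 2 ROR half-sites, and the Stat3 window 1 AhR core and 1 Maf half-site. A match describes letters only and says nothing about binding.

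Per kilobase of exon, averaged over the 32 Treg libraries, Stat3 had the highest level with 41.6 CPM per kb and Ccr6 followed with 38.6. Maf had 17.7 and Tmem176b 17.7 CPM per kb, Tmem176a 8.19 and Ahr 6.99. Il23r had 1.15 and Ahrr 0.040 CPM per kb. In the naive CD44low Foxp3-negative library, which has no replicate, Maf had 15.7 CPM of plain total (95% exact Poisson interval 12.9 to 18.9, counting error only). The 16 naive Treg libraries had 46.9 to 211 CPM of Maf on that scale. Ccr6, Tmem176a, Il23r and Ahrr had 0 counts there, which allows up to 0.427 CPM, and Ahr had 2 counts. Stat3, at 505 CPM against 340 to 556 CPM in naive Treg, lay within their range, and so did Tmem176b at 23.1 CPM.

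**Figure D1:**
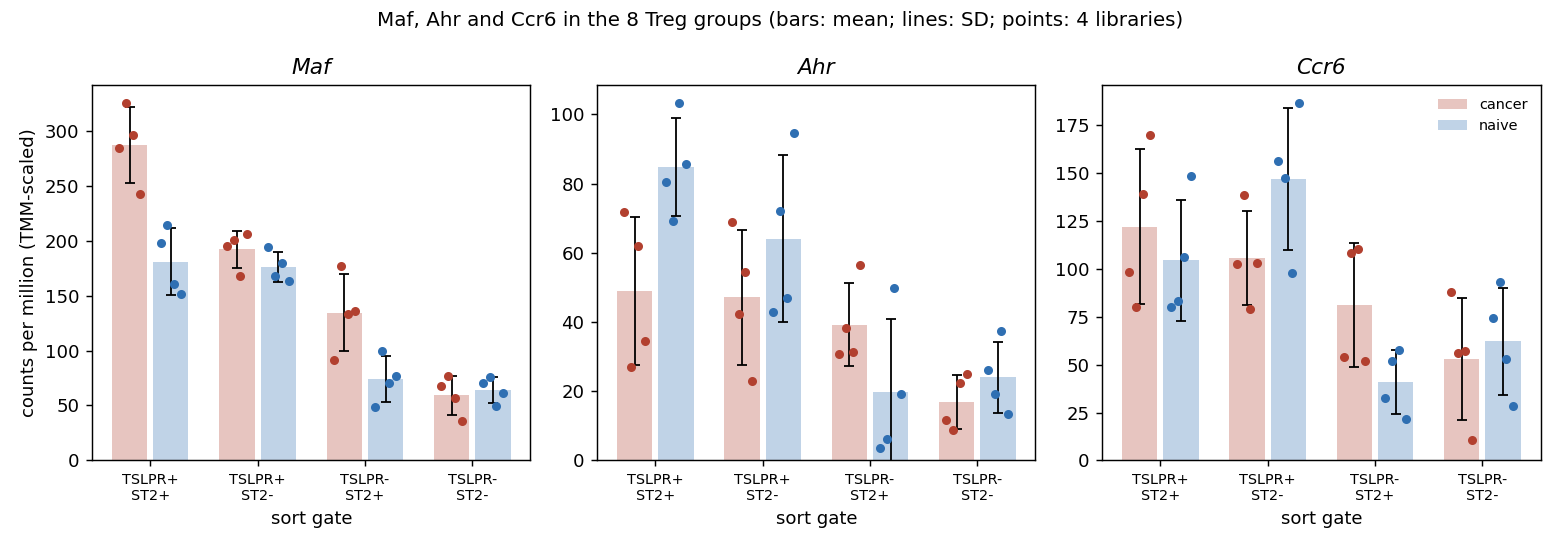
Maf, Ahr and Ccr6 in CPM (TMM-scaled) in each of the 4 sort gates, cancer left of naive; points are 4 libraries (mice), bars the mean and lines the SD. The highest Maf points are those of cancer TSLPR+ST2+ libraries, from 243 to 326 CPM.

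Maf, Ahr and Ccr6 were higher in TSLPR+ than in TSLPR- Treg, by 2.61-fold, 2.51-fold and 2.06-fold. Together they are 3 of the 7 tested genes of the group called higher, where 7.97% of all 14861 tested genes were. All 7 had an unadjusted p under 0.05 in this comparison (25.7% of all genes), with Stat3 the 1 that was lower. Their median log2 fold change was 1.05, against 0.01 over all tested genes. Because these genes and the gene lists further below were chosen with earlier results known, such counts and medians are descriptions. They are not a test of the group.

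Maf (ENSMUSG00000055435, chr8:115682942-115707794, GRCm38, - strand) averaged 209 ± 52.1 CPM in TSLPR+ and 83.0 ± 37.4 CPM in TSLPR- libraries (SD, n = 16 each). In mice 5 to 8 of the cancer group it had 284, 326, 297 and 243 CPM in TSLPR+ST2+ and 91.1, 177, 133 and 136 CPM in TSLPR-ST2+ Treg. The ST2- gates of the same mice had 195, 201, 168 and 206 CPM in TSLPR+ and 67.6, 77.2, 56.6 and 35.5 CPM in TSLPR- Treg. TSLPR+ and TSLPR- libraries of cancer mice did not overlap within either ST2 gate.

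Naive mice 1 to 4 had 198, 214, 160.4 and 151 CPM of Maf in TSLPR+ST2+ and 48.5, 99.3, 70.6 and 76.9 CPM in TSLPR-ST2+ Treg. In the ST2- gates they had 194, 168, 180.1 and 164 CPM in TSLPR+ and 70.8, 76.3, 49.2 and 61.3 CPM in TSLPR- Treg. Again there was no overlap. Maf was higher in the TSLPR+ library of all 16 within-mouse pairs, which held for 0.875% of tested genes. The log2 fold change was 1.39 (SE 0.11, edgeR adjusted p = 1.43e-10).

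The rise of Maf was called in each of the 4 strata. On the log2 scale it was 1.10 in cancer ST2+ (edgeR adjusted p = 0.0028) and 1.70 in cancer ST2- Treg (adjusted p = 2.80e-05). In naive mice it was 1.29 in ST2+ (adjusted p = 6.74e-04) and 1.45 in ST2- Treg (adjusted p = 1.67e-04). Maf and no other member was called in cancer ST2+, cancer ST2- and naive ST2- strata, where 1.37%, 0.619% and 0.733% of genes were called higher, and Ahr joined it in naive ST2+ (0.693%). The difference of the TSLPR effect on Maf between cancer and naive mice was 0.02 (SE 0.21). Maf shares 440 exonic bases with Gm15655 on the other strand, 5.34% of its exons.

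Ahr (ENSMUSG00000019256, chr12:35497974-35535038, - strand) averaged 61.2 ± 23.8 CPM in TSLPR+ and 24.9 ± 15.2 CPM in TSLPR- libraries (n = 16 each). In cancer mice 5 to 8 it had 71.7, 27.1, 62.0 and 34.6 CPM in TSLPR+ST2+ and 30.8, 38.3, 31.4 and 56.5 CPM in TSLPR-ST2+ Treg. In naive mice 1 to 4 it had 80.4, 69.3, 103 and 85.7 CPM in TSLPR+ST2+ and 3.50, 6.19, 49.8 and 19.1 CPM in TSLPR-ST2+ Treg. The gates overlapped in cancer mice and were apart in naive mice. In the ST2- gates of cancer mice Ahr had 68.8, 42.2, 54.3 and 23.0 CPM in TSLPR+ and 11.7, 8.70, 22.3 and 24.9 CPM in TSLPR- Treg. Naive mice had 42.8, 72.1, 46.8 and 94.5 CPM in TSLPR+ST2- and 26.0, 19.2, 37.3 and 13.4 CPM in TSLPR-ST2- Treg. These overlapped in cancer mice, through mouse 8, and again were apart in naive mice. The log2 fold change over all strata was 1.33 (SE 0.26, edgeR adjusted p = 7.40e-04), and 13 of 16 pairs were higher, 5 of 8 in cancer and 8 of 8 in naive mice.

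Within strata, the TSLPR difference of Ahr was called in naive ST2+ Treg alone, with a log2 fold change of 2.10 (edgeR adjusted p = 0.0421), and 6 of 8 fits without 1 mouse lost that call (adjusted p up to 0.278). It was 0.31 in cancer ST2+ Treg. The difference between status groups, -0.86 (SE 0.52), did not pass (adjusted p = 0.717), so the strata are not shown to differ.

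Ccr6 (ENSMUSG00000040899, chr17:8236043-8257141, + strand) averaged 119.9 ± 35.1 CPM in TSLPR+ and 59.3 ± 29.3 CPM in TSLPR- libraries (n = 16 each). In cancer mice 5 to 8 it had 103, 139, 79.0 and 103 CPM in TSLPR+ST2- and 88.1, 56.2, 57.0 and 10.6 CPM in TSLPR-ST2- Treg. In naive mice 1 to 4 it had 156, 147, 97.7 and 187 CPM in TSLPR+ST2- and 74.3, 93.2, 52.9 and 28.5 CPM in TSLPR-ST2- Treg. The gates overlapped in cancer mice, through mice 5 and 7, and were apart in naive mice. In the ST2+ gates Ccr6 had 98.5, 80.2, 139 and 170.1 CPM in TSLPR+ and 53.9, 108, 110.3 and 51.9 CPM in TSLPR- Treg of cancer mice. Naive mice had 80.1, 83.3, 106 and 149 CPM in TSLPR+ST2+ and 32.3, 52.1, 57.9 and 21.6 CPM in TSLPR-ST2+ Treg. Here too the cancer libraries overlapped and the naive ones did not. The difference of the TSLPR effect on Ccr6 between cancer and naive mice was -0.50 (SE 0.41). It did not pass (edgeR adjusted p = 0.838), so the status groups are not shown to differ. Ccr6 was higher in 15 of 16 pairs, with a log2 fold change of 1.05 (SE 0.21, edgeR adjusted p = 8.74e-04), and no single stratum passed.

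**Figure D2:**
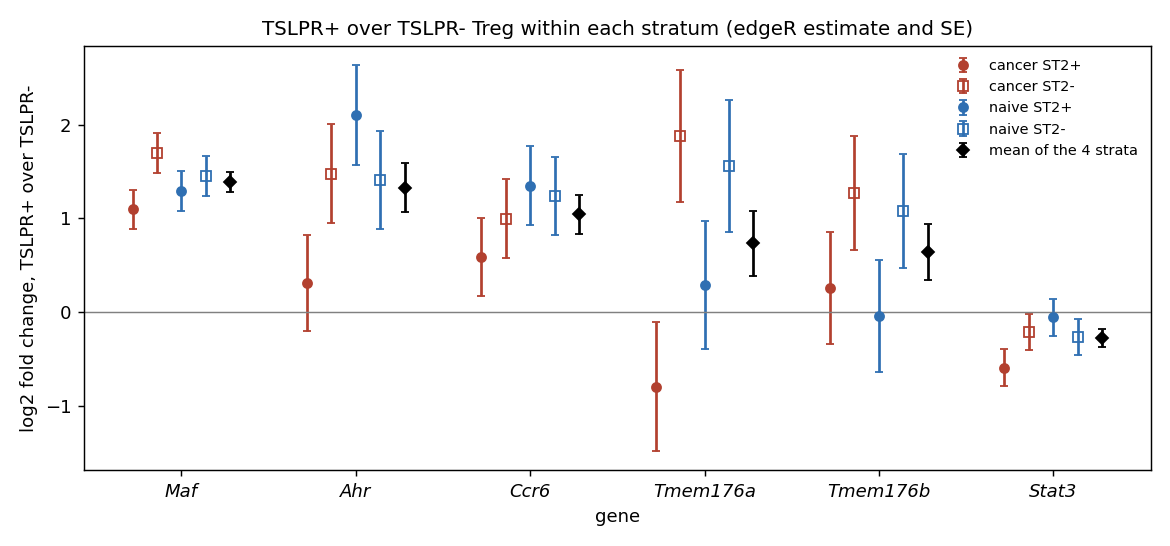
The log2 fold change of TSLPR+ over TSLPR- Treg for 6 genes within the 4 strata of status and ST2 and as their mean, from edgeR; lines are 1 SE. Maf lies above 1 in all strata, from 1.10 to 1.70, while Tmem176a lies at 1.88 and 1.56 in the ST2- strata of cancer and naive mice and at -0.80 and 0.29 in their ST2+ strata.

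Tmem176a and Tmem176b did not pass for TSLPR. Tmem176a averaged 37.8 ± 27.2 CPM in TSLPR+ and 24.6 ± 22.0 CPM in TSLPR- libraries (log2 0.73, edgeR adjusted p = 0.172, 10 of 16 pairs higher). Tmem176b averaged 50.7 ± 18.6 CPM in TSLPR+ and 33.1 ± 27.3 CPM in TSLPR- libraries (log2 0.64, adjusted p = 0.170, 11 of 16 pairs higher), and limma-voom called it (adjusted p = 0.0355). In cancer mice 5 to 8 Tmem176a had 55.5, 21.3, 80.0 and 112 CPM in TSLPR+ST2- and 8.87, 21.8, 36.2 and 6.07 CPM in TSLPR-ST2- Treg. Naive mice 1 to 4 had 22.4, 23.4, 27.0 and 48.7 CPM in TSLPR+ST2- and 3.95, 30.0, 1.53 and 6.17 CPM in TSLPR-ST2- Treg. The gates overlapped in both, in naive mice through the 1 library of mouse 2. Tmem176a had its largest TSLPR difference in cancer ST2- Treg (log2 1.88, adjusted p = 0.231) and its lowest in cancer ST2+ Treg (-0.80, adjusted p = 0.597). The ST2 by TSLPR term of Tmem176a was -1.97 (SE 0.69, unadjusted p = 0.00786, adjusted p = 0.416), so the difference between strata did not pass.

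Stat3 averaged 360.0 ± 94.7 CPM in TSLPR+ and 432 ± 68.3 CPM in TSLPR- libraries. It was lower in 13 of 16 pairs (log2 -0.28, SE 0.10) and just missed the limit (edgeR adjusted p = 0.0525). DESeq2 and limma-voom called it lower (adjusted p = 0.0455 and 0.0239).

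Markers of macrophages and dendritic cells moved with the TSLPR gate. Of 16 such markers, 14 were higher in TSLPR+ libraries and 0 lower. Their summed level was 1053 to 7617 CPM (median 2876) in TSLPR+ and 152 to 3221 CPM (median 958) in TSLPR- libraries. Among defining markers, Cd14 was at 0 in 24, Itgax in 20, Adgre1 in 14, Csf1r in 4 and Lyz2 in 1 of 32 libraries. All 6 B cell markers were higher in TSLPR+ as well, with a summed median of 176 CPM in TSLPR+ and 61.2 CPM in TSLPR- libraries. So were 3 of 7 tested epithelial markers, with 0 lower and summed medians of 148 CPM in TSLPR+ and 59.1 CPM in TSLPR- libraries. Of 5 tested markers of innate lymphoid, NK and gamma-delta T cells, 2 were higher and 0 lower, with summed medians of 45.6 CPM in TSLPR+ and 31.4 CPM in TSLPR- libraries. Of 10 T cell and Treg markers, 5 were higher and 1 lower, with summed medians of 7358 CPM in TSLPR+ and 6556 CPM in TSLPR- libraries. Of 2 tested stromal and endothelial markers, 0 were higher and 1 lower, with summed medians of 107 CPM in TSLPR+ and 183 CPM in TSLPR- libraries. Beside all these marker counts, 7.97% of all tested genes were higher and 5.46% lower in TSLPR+ libraries. In bulk libraries, fewer cells of a type and less RNA per cell cannot be told apart.

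The genes differed in how far they moved with these markers. Over the 32 libraries, which share mice and gates, the log2 level of Maf had a Pearson r of 0.80 with the log2 marker sum. It was 0.61 for Tmem176a and for Tmem176b, 0.51 for Ahr, 0.45 for Ccr6, 0.07 for Il23r and -0.47 for Stat3. With the log2 marker sum as a covariate in the edgeR fit, the TSLPR log2 fold change of Maf was 1.07 and stayed called (adjusted p = 0.0024). Ahr, at 0.99 (adjusted p = 0.595), and Ccr6, at 0.90 (adjusted p = 0.422), were no longer called. Within strata the call on Maf remained in naive ST2+ Treg (adjusted p = 0.0222) and was lost in the other 3 (adjusted p 0.0818 to 0.243), and the mitochondrial covariate ended it in cancer ST2+ Treg (log2 0.77, adjusted p = 0.151). Over all genes 53 were called higher and 44 lower with the marker covariate, against 1185 and 811 without it. The Tmem176 pair turned to -0.90 for Tmem176a and -0.68 for Tmem176b. The part of such cells in the levels of Maf, Ahr, Ccr6 and the Tmem176 genes was not tested beyond this.

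**Figure D3:**
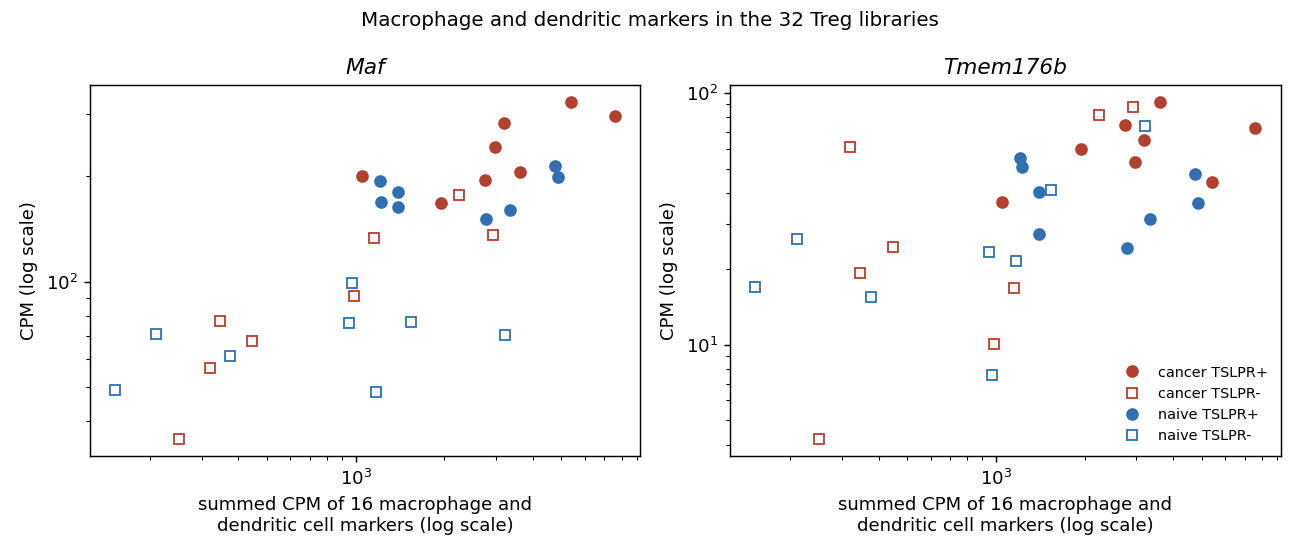
CPM of Maf and Tmem176b against the summed CPM of 16 macrophage and dendritic cell markers in the 32 Treg libraries, both axes on a log scale; filled points are TSLPR+, open squares TSLPR-. Marker sums run from 1053 to 7617 CPM in TSLPR+ and from 152 to 3221 CPM in TSLPR- libraries, and Maf from 151 to 326 CPM in TSLPR+ and from 35.5 to 177 CPM in TSLPR- libraries.

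The 2 single-positive gates were closer in their marker sums. Medians were 2349 CPM in cancer TSLPR+ST2- against 1701 CPM in cancer TSLPR-ST2+ libraries, and 1310 CPM in naive TSLPR+ST2- against 1356 CPM in naive TSLPR-ST2+ libraries. Maf was higher in TSLPR+ST2- than in TSLPR-ST2+ Treg by 1.85-fold (log2 0.89, SE 0.15, edgeR adjusted p = 5.61e-04). Ccr6 was higher by 2.16-fold (log2 1.11, SE 0.30, adjusted p = 0.0338). These are 2 of 7 genes called higher, where 1.4% of all genes were, and both stayed called with the marker covariate (Maf adjusted p = 3.51e-04, Ccr6 adjusted p = 0.0384). Ccr6 lost the call in 5 of 8 fits without 1 mouse (adjusted p up to 0.119), with the mouse as a block (log2 1.15, adjusted p = 0.052) and without the 2 ST2+ libraries of mouse 5 (adjusted p = 0.0852).

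Between TSLPR+ST2+ and TSLPR-ST2- Treg, Maf was 3.69-fold, Ahr 3.19-fold and Ccr6 1.97-fold higher, and Ccr6 lost its call in 4 of 8 fits without 1 mouse (edgeR adjusted p up to 0.107). These are 3 of 7 genes called higher against 9.27% of all genes. Marker sums did not overlap between these gates, at 2782 to 7617 CPM in TSLPR+ST2+ and 152 to 947 CPM in TSLPR-ST2- libraries, and 0 of the 3 calls remained with the covariate.

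Of the 7 genes, Maf alone was called for ST2, where 3.7% of all genes were called higher. It averaged 169 ± 85.2 CPM in ST2+ and 123 ± 65.1 CPM in ST2- libraries (n = 16 each, 1.41-fold, log2 0.50, SE 0.10, edgeR adjusted p = 0.0027). The ST2+ library was higher in 8 of 8 pairs of cancer mice and in 5 of 8 pairs of naive mice. The log2 difference was 1.18 in cancer TSLPR- Treg (adjusted p = 0.0026; 1 of 7 genes against 0.525% of all) and 0.58 in cancer TSLPR+ Treg (adjusted p = 0.218). It was 0.20 in naive TSLPR- and 0.04 in naive TSLPR+ Treg.

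The difference in the ST2 effect on Maf between cancer and naive mice was 0.76 (SE 0.21, unadjusted p = 9.24e-04) and did not pass over all genes (edgeR adjusted p = 0.479). In that test 0 of 14861 genes passed, and 6.23% had an unadjusted p under 0.05, among them 3 of the 7 genes (Maf, Ccr6 and Il23r). The call in cancer TSLPR- Treg was lost without mouse 8 (log2 0.98, adjusted p = 0.0699). Macrophage and dendritic markers moved with ST2 too, with 11 of 16 higher against 3.7% of all genes. Summed medians of these markers were 2948 CPM in ST2+ and 1000.06 CPM in ST2- libraries. With their sum as a covariate the ST2 difference of Maf was 0.19 (adjusted p = 0.874).

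In order of mean level, Maf had 287 ± 34.5 CPM in cancer TSLPR+ST2+ Treg, the one group above all others without overlap. Then came 192 ± 17.1 CPM in cancer TSLPR+ST2-, 181 ± 30.1 CPM in naive TSLPR+ST2+ and 176 ± 13.7 CPM in naive TSLPR+ST2- Treg, whose ranges overlap. Cancer TSLPR-ST2+ Treg had 134 ± 35.1 CPM and touched the groups on both sides. The lowest 3, which overlap, were naive TSLPR-ST2+ with 73.8 ± 20.9, naive TSLPR-ST2- with 64.4 ± 11.9 and cancer TSLPR-ST2- with 59.2 ± 17.9 CPM.

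By group mean, Ahr was highest in naive TSLPR+ST2+ Treg (84.7 ± 14.2 CPM), then in naive TSLPR+ST2- (64.1 ± 24.1 CPM), and lowest in cancer TSLPR-ST2- Treg (16.9 ± 7.92 CPM). Neighbouring groups in that order overlapped. Ccr6 ran from 147 ± 37.0 CPM in naive TSLPR+ST2- Treg down to 41.0 ± 16.9 CPM in naive TSLPR-ST2+ Treg, again with overlap between neighbours. Tmem176b was highest in cancer TSLPR+ST2- (65.7 ± 23.3 CPM) and cancer TSLPR+ST2+ Treg (58.7 ± 12.5 CPM) and lowest in naive TSLPR-ST2- Treg (20.5 ± 5.19 CPM). Stat3 group means lay between 278 ± 111 CPM in cancer TSLPR+ST2+ and 468 ± 90.8 CPM in naive TSLPR-ST2- Treg.

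Il23r (ENSMUSG00000049093, chr6:67422932-67491855, - strand) was sparse, at 0 in 16 of 32 libraries, and its mean was highest in TSLPR+ST2- Treg in both cancer and naive mice. There it had 9.33, 5.25, 26.1 and 10.2 CPM in cancer mice 5 to 8 and 4.09, 3.04, 1.77 and 3.30 CPM in naive mice 1 to 4. These 2 groups did not overlap, although the test within the gate did not pass (edgeR adjusted p = 0.956). In TSLPR-ST2+ Treg it had 0, 6.15, 6.78 and 0 CPM in cancer mice and was at 0 in all 4 naive libraries, where a count of 0 allows up to 3 counts a library. Il23r averaged 1.19 ± 2.50 CPM in ST2+ and 4.55 ± 6.60 CPM in ST2- libraries (lower in 11 of 16 pairs and tied in 3, adjusted p = 0.0965). In the other 2 gates, TSLPR+ST2+ and TSLPR-ST2-, it reached at most 5.69 and 0.623 CPM in cancer and 0.225 and 6.05 CPM in naive mice.

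Ahrr (ENSMUSG00000021575, chr13:74211118-74292331, - strand) was at 0 in 27 of 32 libraries and at most 8.16 CPM, in 1 cancer TSLPR+ST2+ library, so it was not tested.

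**Figure D4:**
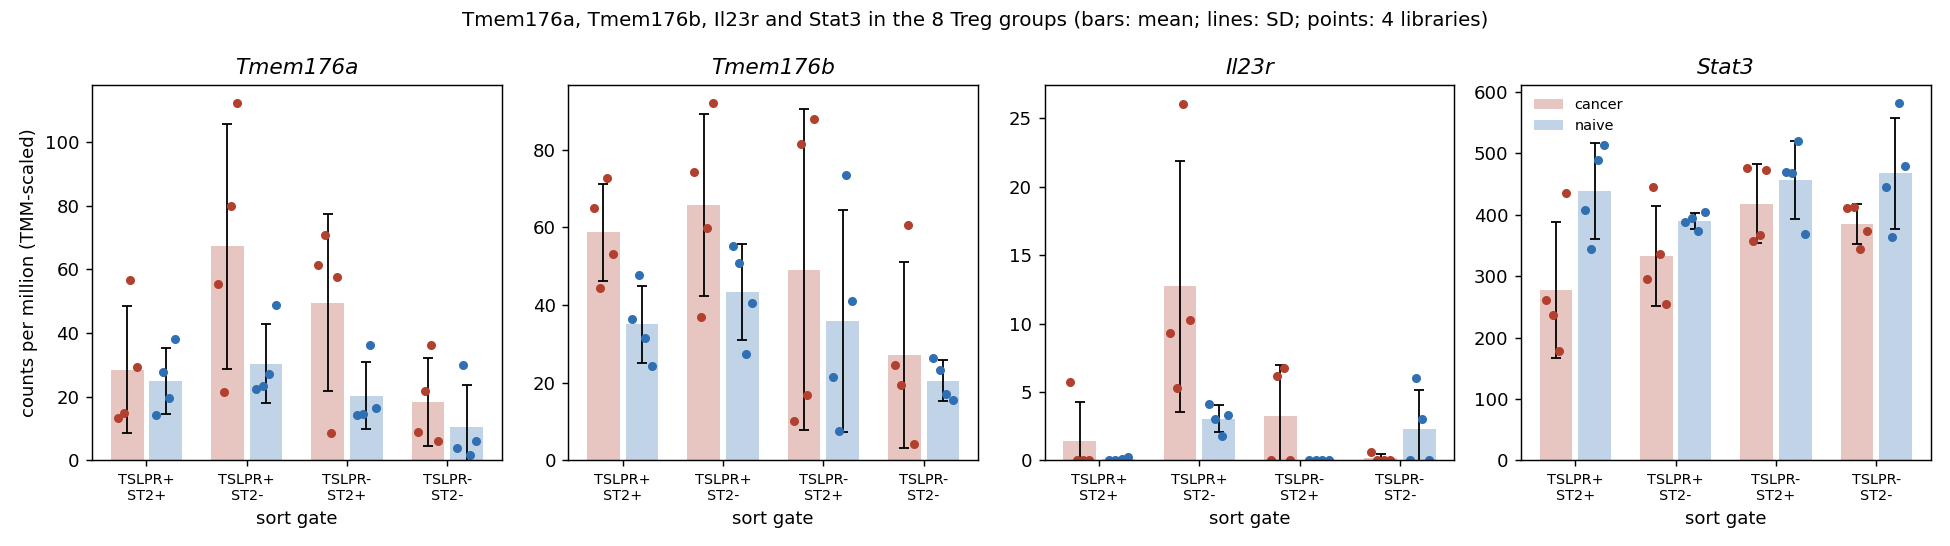
Tmem176a, Tmem176b, Il23r and Stat3 in CPM (TMM-scaled) in each sort gate, cancer left of naive; points are 4 libraries, bars the mean and lines the SD. Il23r is highest in cancer TSLPR+ST2- libraries (5.25 to 26.1 CPM), and Stat3 is lowest in cancer TSLPR+ST2+ libraries (177 to 435 CPM).

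Within gates, cancer Treg differed from naive Treg in 1 call. Stat3 (ENSMUSG00000004040, chr11:100885098-100939540, - strand) was lower in TSLPR+ST2+ Treg, with 262, 236, 177 and 435 CPM in cancer mice 5 to 8 against 408, 344, 489 and 515 CPM in naive mice 1 to 4. Mouse 8 lay within the naive range and the other 3 cancer libraries lay below it. The fold was 1.58 lower (log2 -0.66, SE 0.19, edgeR adjusted p = 0.0491), 1 of 7 genes called lower where 2.5% of all genes were. The call was lost in 6 of 8 fits without 1 mouse (adjusted p up to 0.179, without mouse 4) and without the 2 ST2+ libraries of mouse 5 (adjusted p = 0.105). A fit with the mitochondrial share (log2) as covariate turned the direction, to 0.17.

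Totals and RNA measures moved with status in that gate: cancer totals were 4038718 to 5816224 counts and naive totals 6607867 to 8839946. The share of mitochondrial genes was 1.43 to 3.23% in the cancer and 0.618 to 1.24% in the naive libraries of this gate. The cancer library with the lowest Stat3, that of mouse 7, also had the highest epithelial marker sum, 13986 CPM against at most 529.7 CPM in all others. Without mouse 7 the Stat3 log2 fold change was -0.52 (edgeR adjusted p = 0.169). With the libraries thinned to equal totals it was -0.64 (adjusted p = 0.0502).

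Maf had its largest status differences in the ST2+ gates, and neither passed. The log2 difference was 0.86 in TSLPR-ST2+ (edgeR adjusted p = 0.0804, 91.1 to 177 CPM in cancer and 48.5 to 99.3 CPM in naive mice). In TSLPR+ST2+ Treg it was 0.67 (adjusted p = 0.0598), and the 4 cancer libraries lay above the 4 naive ones. DESeq2 called Maf higher in both gates (adjusted p = 0.0080 and 0.0191), where it called 88 and 601 genes higher against 7 and 247 with edgeR. Without mouse 5 edgeR called Maf in TSLPR-ST2+ Treg (adjusted p = 0.0497), and without mouse 8 in TSLPR+ST2+ Treg (adjusted p = 0.0349). In each gate 7 of 8 fits without 1 mouse did not call it (edgeR adjusted p up to 0.318 and 0.216). With the mitochondrial covariate edgeR called 0 genes higher in TSLPR+ST2+ Treg. In the ST2- gates the log2 difference was 0.12 for TSLPR+ST2- cells and -0.12 for TSLPR-ST2- cells.

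In TSLPR-ST2+ Treg edgeR called 0 of the 7 genes (0.202% of all genes) and 3 had an unadjusted p under 0.05 (10.6% of all genes). DESeq2 called 1, Maf, with 88 higher and 110 lower over all genes. Within TSLPR+ST2- and within TSLPR-ST2- cells 0 of the 7 were called, against 0.0471% and 0.209% of all genes, and 0 had an unadjusted p under 0.05, against 7.4% and 7.41%. DESeq2 and limma-voom called 0 in these gates as well.

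Summed over the 4 gates of a mouse, levels of Maf, Tmem176a, Tmem176b and Il23r lay above those of naive mice in cancer mice, and Stat3 below, without overlap, but edgeR called 0 of the 7 (1.21% of 15338 genes). At an unadjusted p under 0.05 there were 6 of the 7, where 16.9% of all genes were, and DESeq2 called 4 higher and 1 lower. Over all genes DESeq2 called 405 higher and 735 lower in these sums, against 44 and 142 with edgeR. Sums of all 4 cancer mice lay above those of all 4 naive mice for 5.53% of genes and below them for 5.8%.

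Tmem176a (ENSMUSG00000023367, chr6:48840919-48847071, + strand) had 38.2, 31.7, 42.6 and 51.9 CPM in cancer mice 5 to 8 and 13.5, 23.6, 21.9 and 28.3 CPM in naive mice 1 to 4 (log2 0.91, SE 0.23, edgeR adjusted p = 0.1002). Tmem176b (ENSMUSG00000029810, chr6:48833818-48841496, - strand) had 40.3, 43.8, 49.3 and 60.3 CPM in cancer mice and 34.5, 32.5, 39.4 and 30.0 CPM in naive mice (log2 0.51, adjusted p = 0.139). Every cancer mouse was above every naive mouse for both genes. They share 81 exonic bases on opposite strands and the strand of counting is not given, so reads there cannot be assigned to 1 of them. In these sums edgeR called 0 of 16 macrophage and dendritic markers higher (0.287% of all genes) and 2 lower (0.926%). Their summed level was 1687, 2057, 2316 and 2442 CPM in cancer mice 5 to 8 and 1851, 2160, 2194 and 1687 CPM in naive mice 1 to 4, so the groups overlapped and mice 7 and 8 lay above all naive mice. Over single libraries the median was 2096 CPM in cancer and 1310 CPM in naive mice. With the log2 marker sum as a covariate the log2 differences were 0.87 for Tmem176a and 0.41 for Tmem176b.

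Il23r had 3.64, 2.81, 8.48 and 2.53 CPM in the sums of cancer mice 5 to 8 and 0.976, 1.90, 1.12 and 0.753 CPM in naive mice 1 to 4 (log2 1.87, SE 0.52, edgeR adjusted p = 0.116). Maf had 144.9, 186, 151 and 153 CPM in cancer and 126, 144.5, 116 and 116 CPM in naive mice, so the gap between the groups was narrow (log2 0.33, adjusted p = 0.149). Stat3 had 375, 369.6, 315 and 385 CPM in cancer and 429, 393, 500.2 and 448 CPM in naive mice (log2 -0.29, adjusted p = 0.139). Ahr averaged 36.7 ± 6.40 CPM in cancer and 49.5 ± 11.4 CPM in naive mice (n = 4 each, adjusted p = 0.290) with overlap, and Ccr6 88.0 ± 6.77 and 88.8 ± 8.45 CPM. The mitochondrial share was 0.958 to 3.23% over all cancer and 0.616 to 1.28% over all naive libraries, and with that share as a covariate Stat3 and Ahr turned to 0.07 each.

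**Figure D5:**
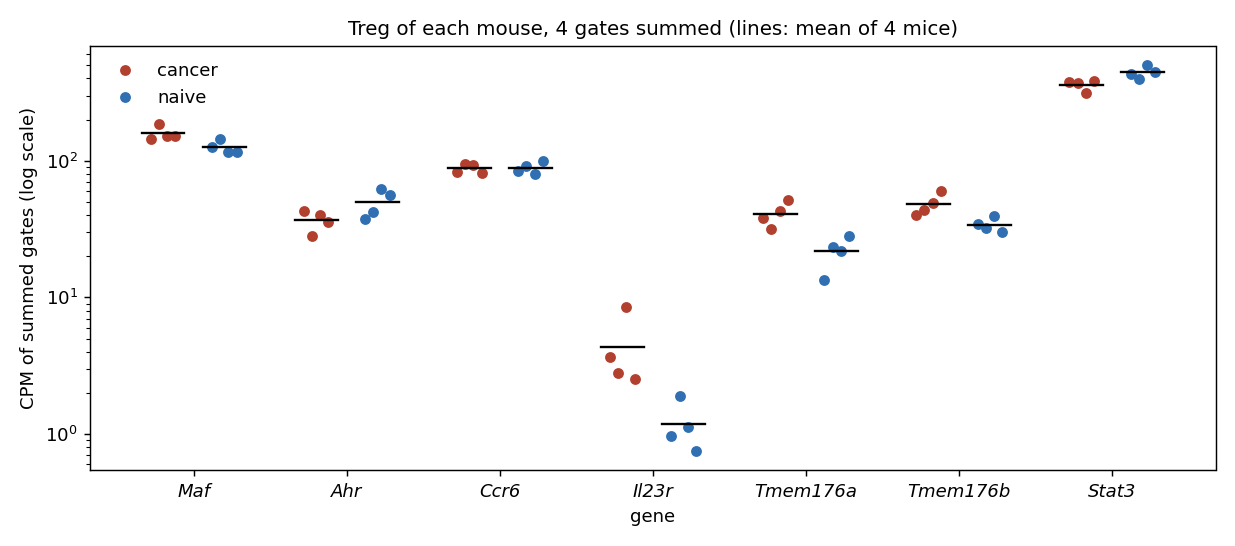
CPM of 7 genes in the Treg of each mouse, with its 4 gates summed, on a log scale, cancer left of naive; points are 4 mice and lines their mean. For Maf, Il23r, Tmem176a and Tmem176b every cancer point is above every naive point, and for Stat3 below.

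Other genes of the AhR pathway moved in part. Of 15 listed, 12 were tested, and 4 rose and 0 fell in TSLPR+ Treg, where 7.97% of all genes were higher and 5.46% lower. They were the integrin chain Itgae (359 ± 202 in TSLPR+ and 206 ± 106 CPM in TSLPR- libraries), the colon homing receptor Gpr15 (112 ± 36.1 and 76.5 ± 67.8 CPM), Hif1a (242 ± 47.4 and 179 ± 41.6 CPM) and the AhR partner Arnt2 (7.83 ± 8.17 and 2.62 ± 4.18 CPM). Arnt2 lost its call with the mouse as a block (edgeR adjusted p = 0.126) and in 6 of 8 fits without 1 mouse. With the macrophage marker covariate 0 of these 4 stayed called. For ST2, Itgae rose 2.22-fold and Gpr15 2.35-fold and the chaperone gene Hsp90ab1 fell 1.12-fold, where 3.7% of all genes were higher and 2.33% lower. Itgae and Gpr15 stayed called with the marker covariate, while Hsp90ab1 lost its call in 5 of 8 fits without 1 mouse (adjusted p up to 0.114). Cyp1a1, Cyp1a2 and Cyp1b1, the textbook AhR targets, were too low to be tested. The list's median log2 change for TSLPR was -0.05, and 0 of its genes passed in the cancer sums.

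Of the Maf and CNC family, 9 of 11 were tested and 2 rose and 1 fell in TSLPR+ Treg, against 7.97% and 5.46% of all genes. The small Maf gene Mafg rose 1.63-fold (edgeR adjusted p = 0.0084) and Mafk fell 1.83-fold (adjusted p = 0.0237), a call lost in 4 of 8 fits without 1 mouse (adjusted p up to 0.0742). For ST2, 1 rose and 1 fell, against 3.7% and 2.33% of all genes. Bach2, a repressor that restrains effector differentiation, fell 1.49-fold (adjusted p = 0.0397), a call lost in 5 of 8 fits without 1 mouse (adjusted p up to 0.153). With the macrophage marker covariate 0 of the calls on Mafg, Mafk and Bach2 remained. The list's median for TSLPR was -0.11.

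Genes of peripheral Treg and type 17 cells rose with TSLPR: 11 of 14 tested were higher and 0 lower (18 listed), against 7.97% and 5.46% of all genes, with a median log2 change of 1.36. Icos, a costimulatory receptor, had 1106 ± 228 in TSLPR+ and 459.8 ± 128 CPM in TSLPR- libraries (edgeR adjusted p = 1.11e-11). The inhibitory receptor Ctla4 (1.66-fold), the AP-1 factor Batf (1.64-fold) and the chemokine receptor Cxcr6 (4.72-fold) rose as well. With the macrophage marker covariate these 4 stayed called and the other 7 did not. With the mitochondrial covariate 8 of the 11 were called. For ST2, 3 rose and 2 fell, against 3.7% and 2.33% of all genes. Rora rose 1.89-fold, Cxcr3 1.76-fold and Icos 1.39-fold. Cxcr3 lost its ST2 call with the mouse as a block (edgeR adjusted p = 0.0577), and with the marker covariate 0 of these 3 ST2 calls remained. In the cancer sums Prdm1, which encodes Blimp-1, fell 1.76-fold (adjusted p = 0.0318), a call lost in 7 of 8 fits without 1 mouse (adjusted p up to 0.0873).

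Of 12 Helios and ST2 Treg genes, 6 rose and 1 fell with TSLPR (median log2 1.02), against 7.97% and 5.46% of all genes. Tnfrsf9 rose 2.00-fold, Nfil3 2.62-fold, the effector receptor Klrg1 5.78-fold and Ikzf2, which encodes Helios, 1.38-fold. The one that fell, named after its values were seen, was Nrp1, which encodes neuropilin-1, with 186 ± 48.9 in TSLPR+ and 279 ± 94.7 CPM in TSLPR- libraries (log2 -0.54, edgeR adjusted p = 0.0022). With ST2, 7 rose and 0 fell, where 3.7% of all genes were higher, among them Klrg1 (24.5-fold), Gata3 (1.76-fold) and Pparg (15.4 ± 19.8 in ST2+ and 0.338 ± 0.676 CPM in ST2- libraries), beside Il1rl1, on which the gate was sorted. Pparg lost its ST2 call without mouse 8. The relaxin gene Rln3 fell 2.07-fold in the cancer sums (edgeR adjusted p = 0.0035), and lost its call with the mitochondrial covariate (adjusted p = 0.323). With the marker covariate 1 of the 7 TSLPR calls remained, Tnfrsf9, and 3 of the 7 ST2 calls, among them Klrg1 and Gata3.

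Of 23 genes of the IL-6, IL-10, IL-21 and IL-23 receptors and the STAT3 pathway, all tested, 10 fell and 0 rose with TSLPR (median log2 -0.15), against 5.46% and 7.97% of all genes. The IL-6 receptor gene Il6ra had 52.5 ± 16.8 in TSLPR+ and 98.3 ± 23.6 CPM in TSLPR- libraries (1.92-fold lower, edgeR adjusted p = 1.04e-07). The kinase gene Jak1 fell 1.36-fold, and the feedback inhibitors Socs3 and Socs1 fell 1.75-fold and 1.28-fold. For ST2, with 3.7% of all genes higher and 2.33% lower, Il10ra rose 2.02-fold and Jak2 1.499-fold, and Il6st, the shared gp130 chain, fell 1.54-fold. With the marker covariate 1 of the 10 TSLPR calls remained, Il6ra, and 1 of the 3 ST2 calls, Il10ra. In TSLPR+ST2+ Treg of cancer mice 6 of the 23 fell and 0 rose, where 2.5% of all genes were lower. This is the gate in which Stat3 was lower and library totals were apart. With the mitochondrial covariate 0 of these 6 calls remained, and 4 genes of all tested were called lower, against 371 without it.

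The genes most like each member over the 32 Treg libraries (Pearson r of log2 levels, 8390 genes compared, 8391 for Il23r) differed between members. For Maf they were Tigit (0.93), Glrx (0.92) and S100a11 (0.90), and for Ccr6 Glrx (0.76), Malt1 (0.76) and Maf (0.74). For Ahr they were Prkar1a (0.82), Nucb1 (0.81) and B4galnt4 (0.77), and for Stat3 Akna (0.85), Jak1 (0.84) and Arhgef1 (0.84). Tmem176b had Plbd1 (0.74), Dnase2a (0.73) and Gatad1 (0.69), and Tmem176a had Isy1 (0.71), Bex3 (0.70) and Pdap1 (0.70). For Il23r they were Pebp1 (0.68), Ran (0.65) and Prr12 (0.63). Tmem176a and Tmem176b had r = 0.59 with each other and 0.47 once group means were removed, while Maf and Ahr had 0.60 and -0.16. Libraries share mice, gates and marker content, so these values are descriptions.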

How the data were processed

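RNA of 200 sorted cells per library was amplified with SMART-Seq v4, made into Nextera XT libraries and read as single 58-base reads, per the labels' protocols. The deposited values are whole-number counts per Ensembl gene (GRCm38); HTSeq 0.4.1, Picard 1.134, FastQC 0.11.3 and SAMtools 1.2 are named, per the submitters' processing notes. For aligner, annotation and counting strand: not given in the sources used here. Symbols and positions came from GENCODE M21.

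Counts of the 32 Treg libraries were TMM-scaled, filtered (filterByExpr, minimum count 10, minimum total 15) and tested with edgeR 4.0.16 (robust quasi-likelihood, 1 mean per group, R 4.3.3), with Benjamini-Hochberg adjustment over 14861 genes. Cancer and naive mice were also compared on sums of the 4 gates per mouse. DESeq2 1.42.0, limma-voom 3.58.1, other scaling, no filter, thinning, covariates and leaving out each mouse were alternatives. Leaving out the ST2+ libraries of mouse 5 was added after seeing the data. The 4 gates of a number come from 1 mouse, so numbers pair libraries by design. Their deviations had a mean r of 0.0135 over 48 same-mouse pairs and -0.0045 over 144 other pairs. Of the tests, only the edgeR comparison of TSLPR+ with TSLPR- over the 32 Treg libraries was tried on simulated data. Listed genes are named by rule, up to 4 per list and comparison among those called, by p; some of them are not reported here. Members and lists were chosen with earlier results of these data known. Counting intervals and floors (3 counts) cover counting error only.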

Additional observations from a re-analysis of the deposited data

Results flagged for a closer look

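Of 75 gene and group combinations of 4 libraries or mice, 10 had a highest value far from the other 3. Chance flags about 1 in 20 groups of continuous values, but 8 of the 10 are groups of Ahrr or Il23r whose other libraries or mice were at or near 0, and to these that rate does not apply. Of the flagged Ahrr values, 0.164 and 0.303 CPM are 1 and 2 counts. Ahrr stood out in 1 cancer TSLPR+ST2+ library (8.16 CPM), 1 cancer TSLPR+ST2- library (0.164 CPM), 1 naive TSLPR+ST2+ library (0.303 CPM) and 1 naive TSLPR-ST2- library (3.34 CPM). In sums over gates it stood out in 1 cancer mouse (1.79 CPM) and 1 naive mouse (0.676 CPM). Il23r stood out in 1 cancer TSLPR+ST2+ library (5.69 CPM) and 1 cancer TSLPR-ST2- library (0.623 CPM). Tmem176a stood out in 1 naive TSLPR-ST2+ library (36.2 CPM) and 1 naive TSLPR-ST2- library (30.0 CPM).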

How the results depend on the processing

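Maf kept its TSLPR call in every alternative, with a log2 fold change of 1.34 to 1.45 and an edgeR adjusted p of 1.50e-09 to 1.70e-08 without 1 mouse. Ahr (1.15 to 1.67) and Ccr6 (0.84 to 1.17) kept theirs without any 1 mouse. For TSLPR, 1 gene was higher with the marker covariate, and 1 was lower with DESeq2 and limma-voom (0 to 1 without 1 mouse). For ST2, 0 were higher with the marker covariate, and 1 was lower with limma-voom and without the mouse 5 libraries. Between the single-positive gates 1 was higher without the filter, with the replicate block and without the mouse 5 libraries, 4 with limma-voom and 1 to 3 without 1 mouse. With the mouse as a block Ccr6 was at 1.15 there, and no other call on the 8 genes changed. Between TSLPR+ST2+ and TSLPR-ST2- Treg 0 were higher with the marker covariate and 0 to 1 lower without 1 mouse.

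For cancer against naive, DESeq2 called 4 higher and 1 lower in the sums, with 405 higher and 735 lower over all genes. In TSLPR-ST2+ Treg 1 was higher with DESeq2 and without the mouse 5 libraries (0 to 1 without 1 mouse). In TSLPR+ST2+ Treg 1 was higher with DESeq2, limma-voom and thinning (0 to 1 without 1 mouse). There 0 were lower with RLE scaling, no filter, a fit of that gate alone, the mitochondrial covariate, thinning and without the mouse 5 libraries (0 to 1 without 1 mouse).

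Directions turned in 42 values, of which 2 concern called results (Stat3 in TSLPR+ST2+ Treg, Mafg). With the mitochondrial covariate, Stat3 was at 0.0045 in TSLPR-ST2-, 0.0719 in TSLPR+ST2- and 0.17 for TSLPR+ST2+ cells and 0.0669 in sums, Ahr at 0.68 in TSLPR+ST2+ Treg and 0.069 in sums, and Maf at -0.0619 in TSLPR+ST2- Treg. With the marker covariate, Tmem176b was at -0.0411 for TSLPR+ST2- and Tmem176a at -0.21 for TSLPR+ST2+ cells, and Ccr6 at 0.0056 in sums. For ST2 it gave Stat3 0.40, Ahr -0.0443, Tmem176a -1.31 and Tmem176b -1.24, and for TSLPR Stat3 0.12, Tmem176a -0.90, Tmem176b -0.68 and Mafg -0.0252. Limma-voom gave Tmem176b -0.11 in TSLPR-ST2- Treg and Ccr6 0.0045 for ST2. Stat3 for ST2 was at 0.0188 with RLE, 0.0189 with DESeq2, 0.003 without the filter and 0.0076 with thinning. Ccr6 in sums was at 0.007 with thinning and 0.0361 without the mouse 5 libraries. Without 1 mouse, ranges were -0.0619 to 0.0417 for Ccr6 in sums, -0.59 to 0.11 for Ccr6 and -0.27 to 0.0632 for Maf in TSLPR-ST2- Treg. They were -0.17 to 0.081 for Ccr6 and -0.12 to 0.0887 for Stat3 for ST2, and -0.39 to 0.47 for Tmem176a in TSLPR+ST2+ Treg. For Tmem176b they were -0.36 to 0.76 for TSLPR-ST2- and -0.0083 to 1.08 for TSLPR-ST2+ cells. Causes were not tested. At these depths 3 counts are 0.339 to 0.743 CPM, which limits Il23r and Ahrr.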
